A study of Mus musculus with 3 samples.

Results

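The genes Scrg1, C2cd4b and Adck3 were followed in RNA-seq of embryonic mouse digit cells, sorted by reporter fluorescence at the stage when the finger joints are laid down. They are 3 of the 23284 genes listed, picked by symbol because each stood about 10-fold or more higher in Lgr5+ than in Lgr5− cells, so that difference is a description and supports nothing. Each population was sequenced as 1 library, so no value has a replicate, an error or a test, and the spread between samples of one kind is unknown. The labels give a C57/bl6 background for all libraries. The Lgr5+ and Lgr5− libraries were the GFP-positive cells, labelled interzone, and the GFP-negative cells, labelled non-interzone, of forelimb digits at E14.5 (embryonic day) from Lgr5-eGFPCreERT2/+ mice, so both carry the same reporter allele. The Sox9+ library came from digits of Sox9-eGFP/+ mice at E13.5, with the limb not named, and it therefore differs from the other libraries in reporter line and stage as well as in cell type. In each case GFP under Lgr5 or Sox9 control chose the cells, not their position, and the sources used here do not say whether animals were pooled.

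The interzone is the band of flattened cells that marks where a digit's cartilage rod will split into separate elements, and its cells contribute to articular cartilage and other joint tissues. Lgr5, a receptor for the Wnt-enhancing R-spondins, and the growth factor gene Gdf5 are used as its markers. The genes followed here belong to no common pathway. Scrg1 encodes a small secreted, cysteine-rich protein first found as a transcript raised in scrapie-infected mouse brain and later linked to chondrogenesis of human mesenchymal stem cells. C2cd4b encodes a C2 calcium-dependent domain containing protein reported as a nuclear factor of endothelial cells and, with its paralog C2cd4a, studied in pancreatic islets because the human genes lie at a diabetes risk locus. Adck3, now called Coq8a, encodes a mitochondrial atypical kinase-like ATPase needed for the synthesis of coenzyme Q (CoQ, ubiquinone), the electron carrier of the respiratory chain, and its loss causes a cerebellar ataxia in humans.

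Levels are in FPKM (fragments per unit of transcript length and of library size). Folds compare FPKM + 1, which understates differences of low genes. The libraries held 12002, 11969 and 11924 genes at 1 FPKM or more in Lgr5+, Lgr5− and Sox9+ cells. The sorting gene Lgr5 stood at 26.8 FPKM in Lgr5+, 1.36 FPKM in Lgr5− and 3.48 FPKM in Sox9+ cells. Of a list of 20 interzone genes, 13 of the 19 measured, at 1 FPKM or more in the higher library, were at least 2-fold higher in Lgr5+ than in Lgr5− cells, against 3.64% of all measured genes. Lgr5 itself, whose reporter chose the cells, is on this list. The list was also chosen with earlier results of these data known, so the count is a description. Gdf6 (1.7 against 3.52 FPKM) and Cd44 (1.58 against 2.93 FPKM) were lower in Lgr5+ than in Lgr5− cells. Markers of other cells differed too. Skeletal muscle markers summed to 122 FPKM in Lgr5+ cells, against 34.3 FPKM in Lgr5− and 34.1 FPKM in Sox9+ cells. Macrophage markers summed to 85.2 FPKM in Lgr5+, 47.2 FPKM in Lgr5− and 12.1 FPKM in Sox9+ cells. Of the 9 measured between Lgr5+ and Lgr5− cells, 3 were at least 2-fold higher and 0 at least 2-fold lower in Lgr5+ cells. Among all measured genes 3.64% were that much higher and 1.89% that much lower. Lyz2 and Fcgr3 were lower in Lgr5+ cells, by less than 2-fold. Red blood cell markers summed to 150.3 FPKM in Lgr5+, 3978 FPKM in Lgr5− and 141 FPKM in Sox9+ cells. The sorts were bulk samples, in which fewer cells of a type and less RNA per cell cannot be told apart.

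All 3 genes had their highest level in Lgr5+ cells. Scrg1 stood at 107, 6.9 and 65.1 FPKM in the Lgr5+, Lgr5− and Sox9+ libraries. C2cd4b stood at 825, 81.3 and 206 FPKM in the Lgr5+, Lgr5− and Sox9+ libraries. Adck3 stood at 35.5, 2.62 and 0.99 FPKM in the Lgr5+, Lgr5− and Sox9+ libraries. Below that shared peak the genes parted: Scrg1 and C2cd4b were lowest in Lgr5− cells, whereas Adck3 was lowest in Sox9+ cells. Among 12664 genes at 1 FPKM or more somewhere and with no tied values, 16.1% had the order of Scrg1 and C2cd4b (Lgr5+, then Sox9+, then Lgr5−) and 23.0% that of Adck3 (Lgr5+, then Lgr5−, then Sox9+). With 1 library each, how far neighbours in these orders differ beyond their spread was not tested. The plot of levels by library shows these values.

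**Figure D1:**
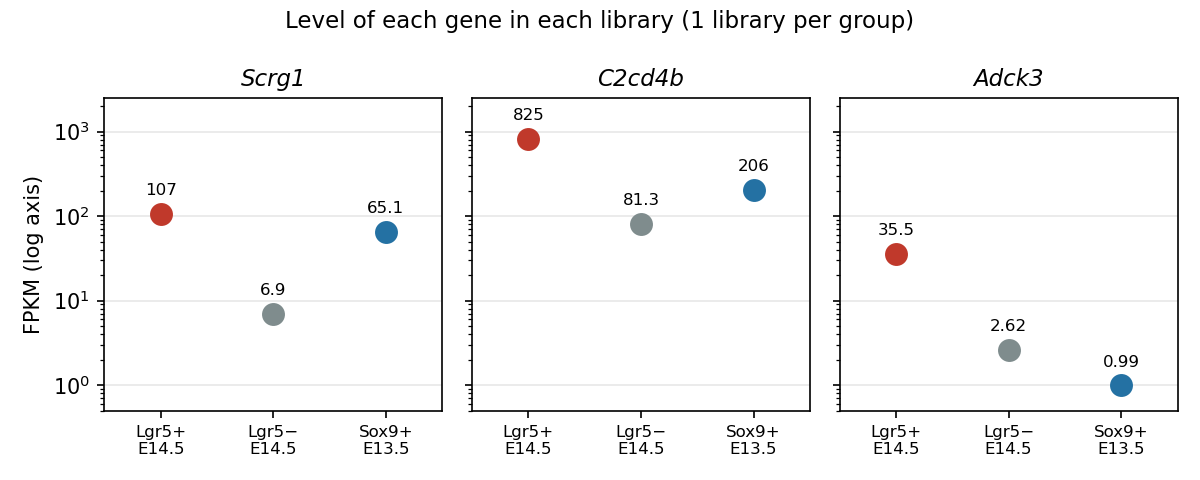
FPKM (log axis) of Scrg1, C2cd4b and Adck3, 1 point per library, with no error because each group is 1 library. Every gene is highest in the Lgr5+ library, Scrg1 and C2cd4b are lowest in the Lgr5− library (6.9 and 81.3 FPKM) and Adck3 is lowest in the Sox9+ library (0.99 FPKM).

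In the comparison that chose them, Scrg1 was 13.7-fold, Adck3 10.1-fold and C2cd4b 10.0-fold higher in Lgr5+ than in Lgr5− cells. Of 12438 genes measured in this pair, 16 (0.129%) were 10-fold or more higher and 453 (3.64%) were 2-fold or more higher in the Lgr5+ library, while 235 (1.89%) were 2-fold or more lower. Scrg1 was in place 7, Adck3 in place 15 and C2cd4b in place 16 of these genes, so Adck3 and C2cd4b lie at the edge of the rule. Among the genes just outside it were the activin subunit gene Inhba at 9.69-fold and the heparan sulfotransferase gene Hs3st3a1 at 9.54-fold. Of the other 13 genes inside, the RNA genes Snora33, Snora43, Snora69, Scarna8 and Mir1983 are listed at 0 in the Lgr5− library, so no fold is given for them. The rest were Cilp (33.7-fold), Barx2 (17.1-fold), Btc (13.0-fold), A430110N23Rik (11.9-fold), Glis1 (11.8-fold), Lgr5 (11.8-fold), Cer1 (11.7-fold) and Msc (10.4-fold).

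The places of these genes by level differed widely. In the Lgr5+ library 842 genes stood at 100 FPKM or more, and 3 of them (0.356%) were 10-fold or more higher than in the Lgr5− library: C2cd4b, Scrg1 and Snora33. The choice of the genes fixed this membership, so nothing is read from it. C2cd4b was the transcript in place 83 of its library by FPKM, Scrg1 in place 792 and Adck3 in place 2478. In the Lgr5− library the places were 969 for C2cd4b, 7443 for Scrg1 and 10093 for Adck3. C2cd4b was among the more abundant RNAs of every library (place 398 in Sox9+ cells), whereas Scrg1 was abundant in Lgr5+ and Sox9+ cells (place 1331 in Sox9+ cells) and Adck3 in neither of the lower libraries.

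**Figure D2:**
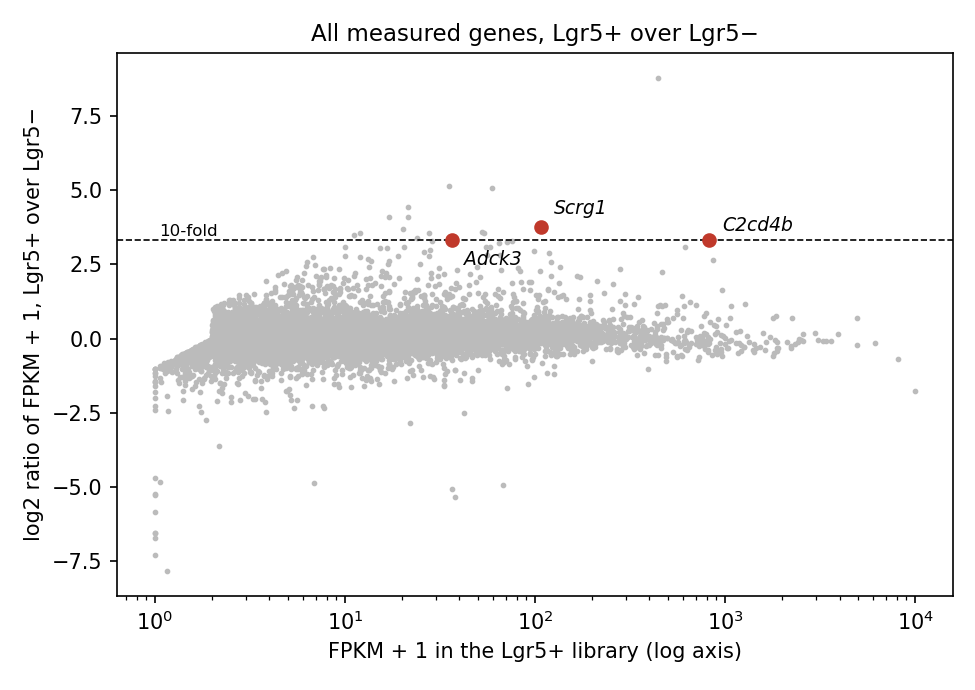
Each point is 1 of 12438 measured genes, with FPKM + 1 in the Lgr5+ library on the x axis (log axis) and the log2 ratio of FPKM + 1 of the Lgr5+ over the Lgr5− library on the y axis; the dashed line is 10-fold, and the genes followed here are in red. C2cd4b, at 825 FPKM, lies far to the right of most genes with a ratio as high.

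The Sox9+ library gave a different picture for each gene. Its comparisons share the Lgr5+ or the Lgr5− library with the pair that chose the genes, so they are descriptions as well. Scrg1 was 1.63-fold higher in Lgr5+ than in Sox9+ cells, under the 2-fold used to call a difference, and 8.37-fold lower in Lgr5− than in Sox9+ cells. C2cd4b was 4-fold higher in Lgr5+ and 2.51-fold lower in Lgr5− than in Sox9+ cells. Adck3 was 18.3-fold higher in Lgr5+ than in Sox9+ cells, with a Sox9+ level of 0.99 FPKM that lies just under 1 FPKM, and it was 1.82-fold higher in Lgr5− than in Sox9+ cells. So 2 of the 3 genes passed 2-fold upward between Lgr5+ and Sox9+ cells, where 541 of 12492 measured genes (4.33%) did and 495 (3.96%) passed it downward. Between Lgr5− and Sox9+ cells 2 of the 3 passed 2-fold downward, where 617 of 12482 genes (4.94%) did, and none upward, where 384 (3.08%) did. In this pair Scrg1 had the ratio in place 29 from the bottom.

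Scrg1 (ENSMUSG00000031610.3) is a protein-coding gene of 3 exons and 1 annotated transcript on the plus strand of GRCm38 chr8:57455923-57477585. None of the 651 words of 50 bases in its transcript occurs in a transcript of another gene, so its reads could be assigned to it alone at that length. The read length is not given in the sources used here.

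Scrg1 is a secreted product of cartilage, and its pattern was set beside 19 genes of cartilage matrix and chondrogenic transcription factors. Of these, 6 were at least 2-fold higher and 2 at least 2-fold lower in Lgr5+ than in Lgr5− cells, against 3.64% higher and 1.89% lower among all measured genes, and the median log2 ratio was 0.69 against 0.08 for all measured genes. Against Sox9+ cells the list was lower, with 1 member at least 2-fold higher and 11 at least 2-fold lower in Lgr5+ cells, where 4.33% of all measured genes were higher and 3.96% lower. The median log2 ratio of the list was −1.23, against 0.06 for all measured genes. In Lgr5− against Sox9+ cells, where Scrg1 was 8.37-fold lower, 17 of the 18 measured members were also at least 2-fold lower and 0 higher. Among all measured genes 4.94% were lower and 3.08% higher in that pair. There the median log2 ratio of the list was −1.94, against −0.01 for all measured genes. In 13 of the 19 the order was Sox9+, then Lgr5+, then Lgr5−, the order of 20.1% of all genes compared, among them the main cartilage collagen Col2a1 (2253 FPKM in Lgr5+, 1401 FPKM in Lgr5− and 5304 FPKM in Sox9+ cells) and the proteoglycan gene Acan (28.6 FPKM in Lgr5+, 18.3 FPKM in Lgr5− and 101 FPKM in Sox9+ cells). The order of Scrg1 was found in 3 members, the transcription factor genes Sox5, Sox6 and Sox9, which act together to switch on cartilage matrix genes. That number is near the 16.1% of all genes with this order, so it says nothing particular of the list.

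Sox5 stood at 35.1, 10.0 and 21.3 FPKM in Lgr5+, Lgr5− and Sox9+ cells, Sox6 at 38.6, 10.96 and 30.3 FPKM, and Sox9 at 332, 147 and 255 FPKM in the same libraries. As a share of the highest library, Scrg1 held 60.8% in Sox9+ cells, within the 60.8% to 78.6% of these factors, but 6.45% in Lgr5− cells, against 28.4% to 44.3% of theirs. Over the whole cartilage list the share in Lgr5− cells ran from 1.29% (Epyc) to 69.8% (Ucma), a range that holds the Scrg1 share. Chad, a leucine-rich matrix protein gene, was the matrix member with the largest share in Lgr5+ cells among those highest in Sox9+ cells, at 75.9%. Matn1 and Comp, genes of maturing cartilage matrix, were at 7.59% and 3.26% of their Sox9+ level in Lgr5+ cells. The plot of cartilage genes sets these shares side by side.

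**Figure D3:**
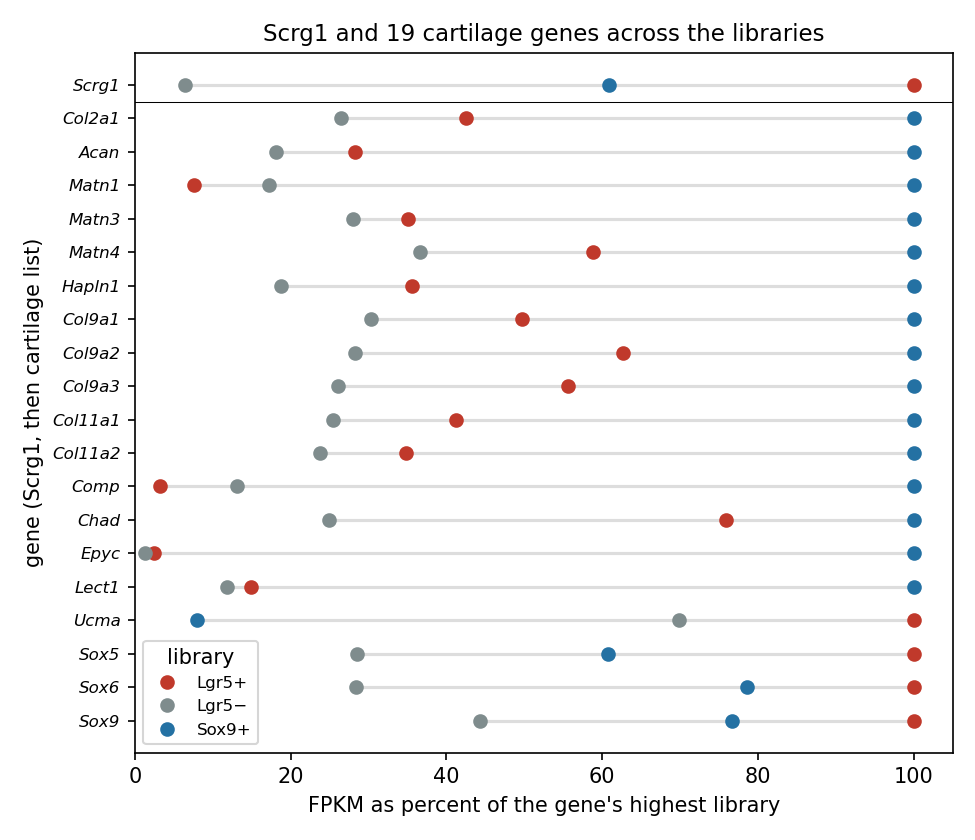
For Scrg1 and 19 cartilage genes, the FPKM of each library as a percent of the gene's highest library (x axis), 1 point per library. Scrg1, Sox5, Sox6 and Sox9 are highest in Lgr5+ cells and lowest in Lgr5− cells, while most matrix genes are highest in Sox9+ cells; Scrg1 has 6.45% of its highest level in Lgr5− cells.

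The cell surface protein Bst1 and the integrin chain Itgb1 have been reported as binding partners of the Scrg1 protein on mesenchymal stem cells. Bst1 was listed at 0 in the Lgr5+ library and stood at 0.01 FPKM in Lgr5− and 0.03 FPKM in Sox9+ cells. Itgb1 stood at 97.1, 92.4 and 113 FPKM in the Lgr5+, Lgr5− and Sox9+ libraries, within 2-fold of one another. Bst1 RNA was thus at or near 0 in every library. These are bulk values, so Bst1 in the cells that held Scrg1 RNA was not measured. Outside cartilage Scrg1 is known as a gene of the nervous system, and the 10 Schwann cell and neuron markers summed to 17.8 FPKM in Lgr5+, 25.7 FPKM in Lgr5− and 30.1 FPKM in Sox9+ cells. Single markers went both ways. The neural crest factor gene Foxd3 was listed at 0 in Lgr5+ cells, whereas Erbb3, a receptor gene of Schwann cells, stood at 4.72, 1.07 and 4.28 FPKM in Lgr5+, Lgr5− and Sox9+ cells, the order of Scrg1. Of the 8 measured between Lgr5+ and Lgr5− cells, 1, Erbb3, was at least 2-fold higher in Lgr5+ cells. The 2 at least 2-fold lower were Tubb3 (1.24 FPKM in Lgr5+ against 6.9 FPKM in Lgr5− cells) and Stmn2 (1.51 FPKM against 8.7 FPKM). Among all measured genes 3.64% were higher and 1.89% lower by that much. The part of neural RNA in the Scrg1 values was not tested.

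The nearest genes on either side that the files list were Hand2, 131 kb away, and Fbxo8 on one side, and Sap30, 5.12 kb away, and Hmgb2, 34.3 kb away, on the other. Sap30, a subunit gene of the Sin3 histone deacetylase complex, stood at 78.4 FPKM in Lgr5+, 31.7 FPKM in Lgr5− and 66.1 FPKM in Sox9+ cells. It had the order of Scrg1, as did 16.1% of all genes compared. It was 2.43-fold higher in Lgr5+ than in Lgr5− cells, a pair in which 3.64% of all measured genes passed 2-fold upward. Hmgb2, Hand2 and Fbxo8 were within 2-fold in every pair. By the largest difference over the 3 log2 ratios, the 5 genes most like Scrg1 among 12753 were Lif (1.19), Chrdl2 (1.25), Cer1 (1.29), Snora43 (1.36) and Krt14 (1.44), and none came within 1 log2 unit. Lif encodes a cytokine of the interleukin-6 family, and Chrdl2 and Cer1 encode secreted BMP antagonists. The keratin gene Krt14 is a marker of epidermis, whose 10 markers summed to 65.9 FPKM in Lgr5+, 25.6 FPKM in Lgr5− and 62.1 FPKM in Sox9+ cells. Krt18 alone held 26.9 FPKM of the Sox9+ sum. Of the 9 measured between Lgr5+ and Lgr5− cells, 6 were at least 2-fold higher and 0 at least 2-fold lower in Lgr5+ cells. Among all measured genes 3.64% were that much higher and 1.89% that much lower. Krt18 and Epcam were lower in Lgr5+ cells, by less than 2-fold. The part of epidermal RNA in the Scrg1 values was not tested.

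C2cd4b (ENSMUSG00000091956.2) is a protein-coding gene of 2 exons and 1 annotated transcript on the plus strand of GRCm38 chr9:67759437-67760930. Its paralog C2cd4a (ENSMUSG00000047990.6) lies 69.6 kb away on the minus strand, at chr9:67830489-67832330, next to the lipid transfer gene Vps13c. The annotated lincRNA M5C1000I18Rik runs on the minus strand at chr9:67758712-67760230, across the C2cd4b start, and its exons cover 627 of the 1327 exonic bases of C2cd4b (47.2%). The libraries were made with a kit that does not mark the strand, so reads from C2cd4b and this antisense gene cannot be told apart over that stretch, and M5C1000I18Rik itself was not analysed here.

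The paralogs also share coding sequence. Their longest identical run is 104 bases, and the stretches below show it with 25 bases on each side, from the GENCODE M21 transcripts on GRCm38, because they bear on how reads could be split. C2cd4b is at chr9:67760305-67760458 on the plus strand and C2cd4a at chr9:67831025-67831178 on the minus strand, both 5′ to 3′ and within the coding exon, with capitals at the 2 bases that differ.
C2cd4b: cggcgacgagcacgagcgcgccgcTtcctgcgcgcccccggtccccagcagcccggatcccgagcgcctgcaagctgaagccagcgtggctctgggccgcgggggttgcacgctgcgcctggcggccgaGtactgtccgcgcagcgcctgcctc
C2cd4a: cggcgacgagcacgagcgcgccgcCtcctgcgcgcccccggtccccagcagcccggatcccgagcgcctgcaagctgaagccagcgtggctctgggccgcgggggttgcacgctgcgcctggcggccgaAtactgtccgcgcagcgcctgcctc
Of the 1278 words of 50 bases in the C2cd4b transcript, 107 (8.37%) also occur in C2cd4a and 531 (41.5%) in M5C1000I18Rik on the other strand. The values of C2cd4b and C2cd4a are both uncertain for this reason, but these shares do not give the size of the error. That size also depends on how shared reads were assigned, which is not given in the sources used here.

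C2cd4a stood at 10.3 FPKM in Lgr5+, 1.45 FPKM in Lgr5− and 24.99 FPKM in Sox9+ cells. It was 4.62-fold higher in Lgr5+ than in Lgr5− cells, as C2cd4b was higher, but 2.29-fold lower in Lgr5+ than in Sox9+ cells, where C2cd4b was 4-fold higher. The ratio of C2cd4b to C2cd4a FPKM was 79.9 in Lgr5+, 56.1 in Lgr5− and 8.23 in Sox9+ cells. The part of C2cd4b reads in the C2cd4a values was not tested. With the FPKM of both summed, the fold was 9.99 for Lgr5+ over Lgr5− cells and 3.61 for Lgr5+ over Sox9+ cells, and the sum was 2.77-fold lower in Lgr5− than in Sox9+ cells.

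The other C2cd genes were lower than C2cd4b in every library. C2cd2, C2cd2l, C2cd3 and C2cd5 (listed as 5730419I09Rik) were at 2.28 to 8.08 FPKM and within 2-fold in every pair, C2cd4d was at 1.41, 0.85 and 0.3 FPKM in Lgr5+, Lgr5− and Sox9+ cells, and C2cd4c was listed at 0 in both Lgr5 libraries. Among the 6 measured members of this list, C2cd4a was the 1 that passed 2-fold between Lgr5+ and Lgr5− cells. Of all measured genes 3.64% passed it upward and 1.89% downward in this pair, and nothing about the family is read from 1 member. The other neighbours, Vps13c (0.79, 0.53 and 0.53 FPKM in Lgr5+, Lgr5− and Sox9+ cells) and the cytoskeletal talin gene Tln2 (3.57, 4.94 and 3.05 FPKM), were low and within 2-fold, and Mir190 was listed at 0 throughout.

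**Figure D4:**
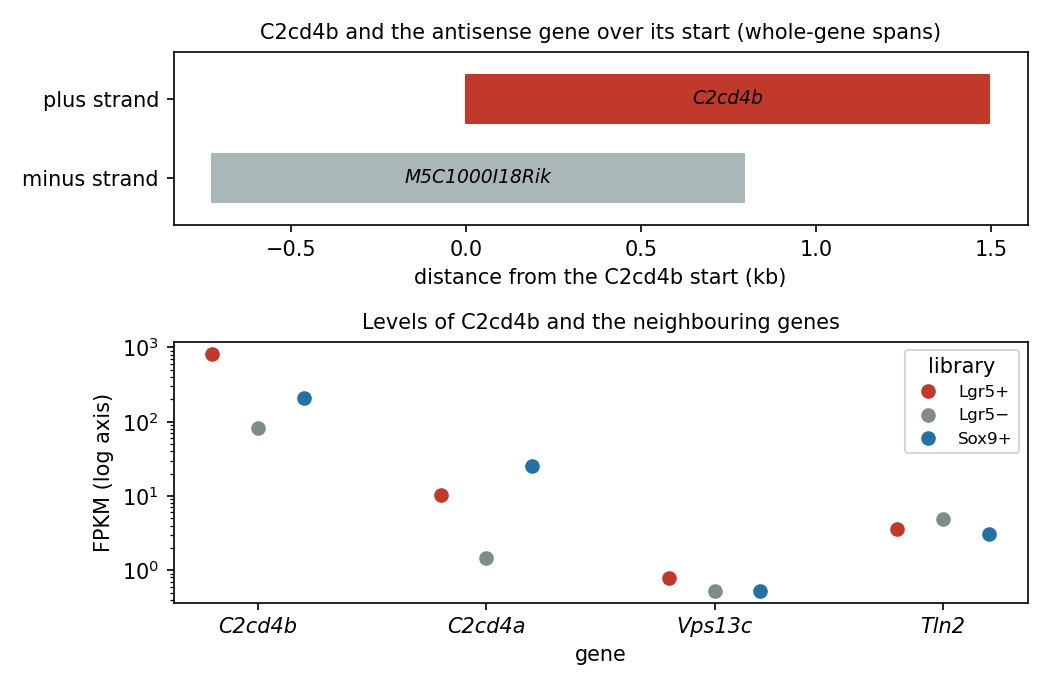
Top, the spans of C2cd4b and of the antisense gene M5C1000I18Rik by strand, in kb from the C2cd4b start. Bottom, FPKM (log axis) of C2cd4b and 3 neighbouring genes, 1 point per library: C2cd4b is highest in Lgr5+ cells (825 FPKM), C2cd4a in Sox9+ cells (24.99 FPKM), and Vps13c and Tln2 vary within 2-fold.

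C2cd4b has been described in endothelial cells. The 10 endothelial markers summed to 17.95 FPKM in Lgr5+, 24.98 FPKM in Lgr5− and 13.6 FPKM in Sox9+ cells, and none of the 8 measured between Lgr5+ and Lgr5− cells passed 2-fold, in a pair where 3.64% of all measured genes passed it upward and 1.89% downward. Pecam1, the endothelial adhesion molecule, stood at 1.22, 2.01 and 0.72 FPKM in Lgr5+, Lgr5− and Sox9+ cells. The part of endothelial RNA in the C2cd4b values was not tested. The 5 genes most like C2cd4b were Inhba (largest log2 difference 0.13), Pknox2 (0.36), Nupr1 (0.39), Sema3c (0.43) and Cer1 (0.45), over 3 libraries and among 12753 genes. Inhba, the activin A subunit gene, stood at 74.2, 6.76 and 19.6 FPKM in Lgr5+, Lgr5− and Sox9+ cells, and the homeobox gene Pknox2 at 19.4, 1.42 and 3.74 FPKM. Sema3c, a secreted guidance molecule gene, stood at 118, 14.9 and 34.6 FPKM in the same libraries. In all, 32 genes came within 1 log2 unit of C2cd4b, against 4 for Adck3.

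Adck3 (annotated as Coq8a, ENSMUSG00000026489.13) is a protein-coding gene with 17 annotated transcripts of 2 to 15 exons on the minus strand of GRCm38 chr1:180165238-180199602. Its end overlaps that of Cdc42bpa on the plus strand by 366 bases, and 317 of its 5680 words of 50 bases (5.58%) also occur in Cdc42bpa transcripts. Cdc42bpa, a kinase gene, stood at 4.38, 5.75 and 4.25 FPKM in Lgr5+, Lgr5− and Sox9+ cells, within 2-fold. The part of Cdc42bpa reads in the Adck3 values was not tested. The files give 1 value per symbol, so which Adck3 transcripts were present was not measured.

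Adck3 belongs to a family of 5 kinase-like genes in mouse, of which Adck4 (Coq8b) also acts in CoQ synthesis. Adck4 stood at 12.8, 6.85 and 8.09 FPKM in Lgr5+, Lgr5− and Sox9+ cells, and Adck1 at 13.7, 12.1 and 8.24 FPKM. Adck2 stood at 10.5, 9.52 and 7.79 FPKM in the same libraries, and Adck5 ranged over them between 7.61 and 14.9 FPKM, also with its highest value in Lgr5+ cells. These 4 genes were all within 2-fold in every pair. From 1.89% to 4.94% of all measured genes passed it in 1 direction in a pair, so a count of 0 among 4 is near the background. Their median log2 ratio was 0.15 for Lgr5+ over Lgr5− cells (0.08 for all measured genes). For Lgr5+ over Sox9+ cells it was 0.64 (0.06 for all measured genes), and for Lgr5− over Sox9+ cells 0.38 (−0.01 for all measured genes). Adck3 made up 40.6% of the summed FPKM of the 5 genes in Lgr5+ cells, 5.88% in Lgr5− cells and 3.03% in Sox9+ cells. In Lgr5+ cells it was the member of highest FPKM, at 2.77 times Adck4, and in the other libraries it was the lowest.

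CoQ is built from a ring and an isoprenoid tail by the Pdss and Coq enzymes in the inner mitochondrial membrane. Of 15 genes of CoQ synthesis and its cofactors, 13 were measured, and none of the 13 passed 2-fold in either direction in any of the 3 pairs. From 1.89% to 4.94% of all measured genes passed it in 1 direction in a pair, so a count of 0 among 13 is near the background. Their median log2 ratio was 0.04 for Lgr5+ over Lgr5− cells (0.08 for all measured genes), 0.07 for Lgr5+ over Sox9+ cells (0.06 for all measured genes) and 0.07 for Lgr5− over Sox9+ cells (−0.01 for all measured genes). Coq7, a hydroxylase gene, stood at 25.8, 26.5 and 31.1 FPKM in Lgr5+, Lgr5− and Sox9+ cells. Coq9, whose product works with Coq7, stood at 22.9, 22.3 and 21.7 FPKM, and Coq2, which joins ring and tail, at 21.7, 19.6 and 16.6 FPKM in these libraries. The log2 ratios furthest from 0 between Lgr5+ and Lgr5− cells were those of the methyltransferase gene Coq3 (−0.54) and the CoQ chaperone gene Coq10a (0.50).

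Adck3 was picked for its difference and the CoQ genes were not, so the contrast between them follows from the choice. In Lgr5+ cells none of the 15 CoQ genes had a higher FPKM than Adck3, while 12 did in Lgr5− cells and 13 in Sox9+ cells. A further list held 12 genes of enzymes that hand electrons to CoQ, such as succinate dehydrogenase. Chdh, the choline dehydrogenase gene, was its 1 member past 2-fold between Lgr5+ and Lgr5− cells (1.78 FPKM against 0.22 FPKM). Of all measured genes 3.64% passed it upward and 1.89% downward. The median log2 ratio of the 12 was 0.17, against 0.08 for all measured genes. The plot of CoQ genes sets the levels of Adck3, the other ADCK genes and the CoQ synthesis genes side by side.

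**Figure D5:**
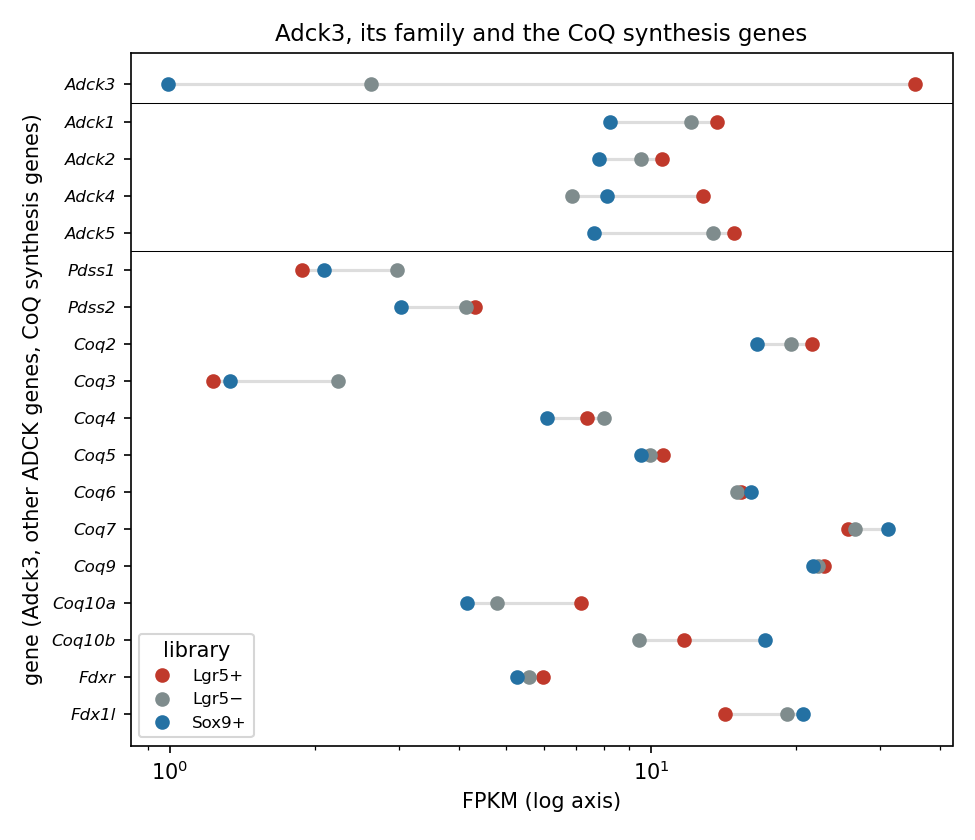
FPKM (log axis) of Adck3, the other 4 ADCK genes and the 13 measured CoQ synthesis genes, 1 point per library. Adck3 runs across the axis, at 35.5 FPKM in Lgr5+, 2.62 FPKM in Lgr5− and 0.99 FPKM in Sox9+ cells, while the points of every other gene lie within 2-fold on the FPKM + 1 scale.

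Adck3 is known to be well expressed in muscle, and skeletal muscle markers were also higher in the Lgr5+ library. Of the 11 measured muscle markers, 10 were at least 2-fold higher in Lgr5+ than in Lgr5− cells, against 3.64% of all measured genes. Against Sox9+ cells 9 of 11 were at least 2-fold higher in Lgr5+ cells, where 4.33% of all measured genes were, and the median log2 ratio of the list was 1.49. Tnnt1, a troponin gene, stood at 30.0, 6.14 and 4.18 FPKM in Lgr5+, Lgr5− and Sox9+ cells, and the myogenic factor gene Myod1 at 8.77, 1.69 and 0.46 FPKM. Another troponin gene, Tnni1, went the other way between Lgr5+ and Sox9+ cells, at 7.75, 2.7 and 10.37 FPKM. Of 11 muscle genes with an order, 7 had that of Adck3 (23.0% of all genes compared) and 3 that of Scrg1 (16.1%). Tnni1 was the 1 gene highest in Sox9+ cells. The adult muscle gene Ckm was at 0.05, 0.17 and 0.06 FPKM, and the muscle stem cell gene Pax7 was listed at 0 in Sox9+ cells and stood at 0.31 FPKM in Lgr5+ cells. The summed muscle level was 122, 34.3 and 34.1 FPKM in Lgr5+, Lgr5− and Sox9+ cells. The part of muscle RNA in the Adck3 values was not tested.

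The neighbours Psen2 (4.54, 4.83 and 2.68 FPKM in Lgr5+, Lgr5− and Sox9+ cells), Ahctf1 (7.54, 9.32 and 9.69 FPKM) and the pseudogene Gm5069 (0.62, 0.55 and 0.56 FPKM) were within 2-fold in every pair. The genes most like Adck3 were Btc (largest log2 difference 0.77), Gdf5 (0.86), Mir1983 (0.86), Cdh13 (0.98) and Scarna8 (1.09). Gdf5, the interzone growth factor gene, stood at 615, 71.7 and 59.9 FPKM in Lgr5+, Lgr5− and Sox9+ cells. Btc, an EGF receptor ligand gene, stood at 19.2, 0.56 and 0.46 FPKM, and the cadherin gene Cdh13 at 35.4, 2.97 and 2.91 FPKM in these libraries. Gdf5, Btc and Cdh13 each had similar levels in the Lgr5− and Sox9+ libraries. Scrg1 and C2cd4b lay far from Adck3 by this measure, at 3.93 and 2.20, and 1.74 from each other.

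RefSeq promoter sequences on GRCm38.p6 were matched for 2 of the 3 genes, C2cd4b and Adck3, with 2 starts for Adck3. These are not all its annotated starts. The GENCODE gene on the minus strand reaches further upstream, to chr1:180199602, and no window was taken there. The 250 bases before each start are shown because they are the regions in which genes that share their highest library could share letters. They run 5′ to 3′ on the gene's strand, at chr9:67759187-67759436 (plus strand) for C2cd4b, at chr1:180196021-180196270 (minus strand) for the upstream Adck3 start and at chr1:180193486-180193735 (minus strand) for the downstream one, with capitals at CCAAT or its reverse complement ATTGG.
C2cd4b: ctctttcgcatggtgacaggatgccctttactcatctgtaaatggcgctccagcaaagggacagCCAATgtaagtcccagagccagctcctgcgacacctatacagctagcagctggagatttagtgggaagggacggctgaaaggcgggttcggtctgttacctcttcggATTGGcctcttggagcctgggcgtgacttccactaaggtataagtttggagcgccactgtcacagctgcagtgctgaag
Adck3, upstream start: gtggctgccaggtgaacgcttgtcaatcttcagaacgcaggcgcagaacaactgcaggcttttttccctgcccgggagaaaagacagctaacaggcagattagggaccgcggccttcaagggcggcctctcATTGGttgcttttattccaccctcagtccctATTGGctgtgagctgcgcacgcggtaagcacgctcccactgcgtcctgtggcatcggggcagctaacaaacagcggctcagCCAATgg
Adck3, downstream start: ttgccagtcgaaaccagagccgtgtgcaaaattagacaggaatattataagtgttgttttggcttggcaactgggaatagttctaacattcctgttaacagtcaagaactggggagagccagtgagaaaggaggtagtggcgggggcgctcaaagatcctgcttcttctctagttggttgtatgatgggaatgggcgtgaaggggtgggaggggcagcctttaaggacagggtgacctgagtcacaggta
The C2cd4b window held CCAAT at 2 places, 186 and 79 bases before the start, and the upstream Adck3 window at 3, at 119, 88 and 7 bases, while the downstream Adck3 window held none. Of 32851 windows of the same length, 33.8% held CCAAT on either strand, 10.1% held it at 2 or more places and 2.79% at 3 or more. The C2cd4b window lies wholly within the antisense gene M5C1000I18Rik.

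The Sp1-type box GGGCGG was in 32.7% of windows on either strand, and it matched in the upstream Adck3 window, at 131 bases before the start, and in no other. The AP-1-type motif TGANTCA was in 6.75% of windows and matched in the downstream Adck3 window, at 13 bases before the start. Neither overlapped a CCAAT. The TATA box TATAAA (12.4% of windows) had no match in the windows shown. Nor had the E-box CACGTG (6.02%), the CRE core TGACG (17.8%) or the Sox core ACAAT (27.7%). A match is a run of letters and not a shown binding site.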

How the data were processed

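RNA was measured in 3 libraries, 1 per sorted population. After enzymatic dissociation and GFP sorting, cDNA was prepared with a SMARTer kit for ultra-low input, starting with 10 ng of RNA, per the labels' protocols. Such kits prime on poly(A) and do not mark the strand. The submitters' processing notes name HISAT2, mm10 and GRCm38. The deposited values are FPKM per gene symbol, made by the authors with 2 decimals. Not given in the sources used here are the FPKM tool, the annotation and the treatment of multi-mapping reads. The files hold no counts, so depth is unknown. A search for the step that 1 fragment leaves in low FPKM of single-transcript genes scored 0.140, 0.121 and 0.0725 in the Lgr5+, Lgr5− and Sox9+ libraries, against 0.951 to 0.952 for simulated whole fragments, and gave no depth.

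Log2 ratios of FPKM + 1 were computed with Python 3.11.15, numpy 2.4.6 and pandas 2.3.3 over genes at 1 FPKM or more in the higher library, and the code was tested on simulated data. Members and lists were chosen with earlier results of these data known. Named genes are those at or above 10-fold and the 3 just under, the 5 most similar in pattern, the 2 nearest listed genes on each side, and list members, and 1 gene so named is not reported here. Annotation was GENCODE M21 and RefSeq, with 50-base words compared on both strands. No test was possible with 1 library per group. Other pseudocounts, scalings and minimum levels were tried.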

Additional observations from a re-analysis of the deposited data

How the results depend on the processing

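No paired analysis was possible because each group has 1 library, and for the same reason no library could be left out. All 72 ratios of Scrg1, C2cd4b and Adck3 recomputed with the 3 other pseudocounts and 5 other scalings kept their direction. C2cd4b stayed between 3.198 and 3.37 and Scrg1 between 3.23 and 3.94 (log2) for Lgr5+ over Lgr5− cells. Adck3, being low in the other libraries, moved by more than 1.5-fold with the pseudocount: at 5 FPKM its log2 ratio was 2.41 for Lgr5+ over Lgr5− and 2.76 for Lgr5+ over Sox9+ cells, and at 0.1 FPKM the Lgr5+ over Sox9+ ratio was 5.03. For Lgr5− over Sox9+ cells it ran from 0.35 to 1.32, on both sides of 2-fold. Summing C2cd4a with C2cd4b, chosen after seeing the data, gave 3.32, 1.85 and −1.47 in the Lgr5+ over Lgr5−, Lgr5+ over Sox9+ and Lgr5− over Sox9+ pairs.

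Counts over all genes depended on scaling. With FPKM rescaled to TPM, so that each library has the same sum, which also shrinks the pseudocount relative to the values, 355 genes were 2-fold lower in Lgr5+ than in Lgr5− cells (235 as reported), 981 were 2-fold higher in Lgr5+ than in Sox9+ cells (541 as reported) and 706 were 2-fold higher in Lgr5− than in Sox9+ cells (384 as reported). At a minimum of 5 FPKM the last count was 253. The TPM scaling put 64.8% of calls upward for Lgr5+ over Sox9+ (52.2% as reported) and 52.3% for Lgr5− over Sox9+ cells (38.4% as reported), leaving out the 50 most abundant genes put 49.1% upward for Lgr5− over Sox9+ cells, and upper quartile scaling put 55.7% upward for Lgr5+ over Lgr5− cells (65.8% as reported). The TPM scaling placed the median of all genes at 0.21 for Lgr5+ over Sox9+ and 0.11 for Lgr5− over Sox9+ cells, against 0.06 and −0.01 as deposited. The rank of the 3 genes by ratio also follows the pseudocount: at 0.1 FPKM Scrg1 was in place 25, Adck3 in place 33 and C2cd4b in place 54 of the Lgr5+ over Lgr5− ratios, and at 5 FPKM they were in places 4, 17 and 3. Without depth, no counting interval can be given for any level.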
